A study of Homo sapiens with 12 samples.

Results

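The genes described here are the MYC, MAX and MXD network of transcription factors in CUTLL1 cells. The members were chosen by name from the known network and not by their values, and they are MYC, MYCN, MAX, MXD1, MXD3, MXD4, MXI1, MNT, MGA and MLX. All 10 members were found among the 62069 gene identifiers of the deposited table, and all 10 were among the 19281 genes that reached a value of 10 in 3 libraries or more. MYC and MYCN were treated as the activators, MAX as their shared partner, MXD1, MXD3, MXD4, MXI1, MNT and MGA as the 6 repressors that bind MAX, and MLX as a MAX-like partner.

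Proteins of this network bind DNA in pairs through a helix-loop-helix and leucine zipper region. MAX is the shared partner. A MYC-MAX pair activates genes for growth, ribosome production and metabolism. The MXD, MXI1 and MNT proteins compete for MAX and recruit the SIN3 corepressor to the same short DNA site, the E-box. MGA joins MAX to a Polycomb complex, and MLX pairs with some MXD proteins, MNT and the glucose-sensing factors MLXIP and MLXIPL. In T-cell acute lymphoblastic leukaemia, MYC is a well-known direct target of NOTCH1, acting through a distant enhancer, and MXI1 is known as a gene induced by hypoxia.

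Poly-A RNA was sequenced from CUTLL1 in 12 libraries, which the labels also spell CUTTL1. This established line grew from human T-cell leukaemia and carries a NOTCH1 rearrangement that keeps the receptor active. The 4 groups of 3 libraries are the line cultured with the solvent DMSO for 12 h, with 1 µM Compound E for 12 h, with DMSO for 48 h, and with 1 µM Compound E for 48 h. Compound E inhibits gamma-secretase, the enzyme that releases active NOTCH1, and its groups are called GSI below. All 12 libraries come from this 1 line, and nothing in the labels says whether replicates were separate cultures. The p-values therefore reflect how far these libraries scatter, which may be technical.

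The deposited value of a gene is its read count after division by the library's size factor, called the normalised read count below. Recovered depth ranged from 73939612 to 160702764 reads per library. All 12 T-cell markers were among the genes kept, with a summed normalised read count of 412281 to 511174 per library. Markers of other cells were low apart from CD79A: 1 of 4 B-cell markers was kept (summed 662 to 3042), 2 of 4 myeloid (26.7 to 53.1), 1 of 4 erythroid (4.49 to 44.6), 2 of 4 epithelial (24.2 to 74.3) and 0 of 3 fibroblast (2.53 to 14.1). Nearly all of the B-cell sum was CD79A, which varied within the DMSO groups. It had 1867, 2511 and 659 normalised reads under DMSO 12 h and 2001, 3042 and 802 under DMSO 48 h. Erythroid markers summed to at most 12.4 in any DMSO library and at least 12.7 in every GSI library, and their part in the results was not tested. In bulk RNA, fewer cells with a transcript and less RNA per cell cannot be told apart.

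The labels of 2 groups are in doubt, and directions below are those of the libraries as labelled. A list of 15 NOTCH1 targets, MYC left out, had library medians relative to the mean of all libraries (log2) of 0.78 to 1.27 under the DMSO 12 h label, 0.36 to 0.86 under GSI 12 h, -0.97 to -0.34 under DMSO 48 h and -1.01 to -0.96 under GSI 48 h. The time labels thus separated these targets more widely than the treatment labels did. For this reason the comparison of GSI 48 h with DMSO 12 h, which uses neither GSI 12 h nor DMSO 48 h, is given beside the matched comparisons. Those 2 groups differ in both treatment and time labels, which cannot be told apart between them. A list of 24 hypoxia response genes, described below, was separated by the treatment labels. Its medians were -1.11 to -0.77 in the DMSO libraries and -0.17 to 1.87 in the GSI libraries. Whether any label is wrong was not tested.

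Promoter sequence was read to see which members carry the site through which the network itself acts. RefSeq start sites on GRCh38.p14 matched 9 of the 10 members, all but MYC, with 14 start sites among them, and the 250 bases before each start were searched on both strands. The E-box CACGTG was found at 3 of the 14 starts, those of MXD4, MNT and MLX, against 6.3% of 35116 promoters in the same table. The core of the hypoxia response element, ACGTG, overlaps the E-box and was found at 6 starts of 6 members, against 18.5% of promoters. At MXD4, MNT and MLX the match is the E-box itself. At MAX it lies in a window where 230 of the 250 bases are annotated exon of MAX. The remaining matches are at a start of MXI1 and a start of MGA. The RBPJ site GTGGGAA, through which NOTCH1 acts, was found at 0 of the 14 starts of these 9 members, against 5.4% of promoters. The 3 stretches with an E-box are shown with a start of MXI1, the repressor that differed most between the treatment labels. The letters are 5′ to 3′ on the strand of the gene, cut where an annotated exon begins, and capitals mark the E-box or the core.
MLX (chr17:42566850-42567067, plus strand): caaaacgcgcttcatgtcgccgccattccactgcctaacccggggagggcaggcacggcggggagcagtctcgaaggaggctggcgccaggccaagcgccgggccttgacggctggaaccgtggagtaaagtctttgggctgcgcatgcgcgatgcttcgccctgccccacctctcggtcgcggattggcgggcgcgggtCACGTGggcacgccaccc
MNT (chr17:2401119-2401310, minus strand): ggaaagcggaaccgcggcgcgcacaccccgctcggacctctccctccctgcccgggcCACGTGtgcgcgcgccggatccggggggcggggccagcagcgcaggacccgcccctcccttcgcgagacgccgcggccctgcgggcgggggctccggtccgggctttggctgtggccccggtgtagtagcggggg
MXD4 (chr4:2262295-2262359, minus strand): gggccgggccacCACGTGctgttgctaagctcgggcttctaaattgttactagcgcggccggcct
MXI1 (chr10:110209981-110210230, plus strand): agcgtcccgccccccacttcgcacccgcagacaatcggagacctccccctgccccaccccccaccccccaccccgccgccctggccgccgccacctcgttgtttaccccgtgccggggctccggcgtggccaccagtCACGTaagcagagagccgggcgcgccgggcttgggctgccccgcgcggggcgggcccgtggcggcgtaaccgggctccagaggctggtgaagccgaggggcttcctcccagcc
The E-box of MLX began 50 bases before its start site, that of MNT 193 bases before and that of MXD4 238 bases before. The core of MXI1 began 113 bases before the second of its 3 starts. A match is a description of the letters, and no binding was measured.

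Levels of different members were compared only per kilobase of annotated exon. In the DMSO 12 h libraries MYC was the most abundant member at 9048 ± 672 normalised reads per kb (SD, n = 3), followed by MAX at 2504 ± 258 and MLX at 2279 ± 170. The spread of MAX and MLX overlapped, so their order is not resolved. The repressors followed, with MGA at 1070 ± 63.7, MXD3 at 966 ± 272, MXI1 at 573 ± 118, MXD4 at 358 ± 70.2, MNT at 293 ± 27.6 and MXD1 at 179 ± 10.8. MGA and MXD3 did not differ beyond their spread, nor did MXD4 and MNT. MYCN was lowest at 24.0 ± 7.02 normalised reads per kb and rested on 45 to 144 reads per library. Over all 12 libraries MYC stood at the 96.3rd percentile of 18344 genes in this measure, MAX at the 88.3rd, MLX at the 86.7th, MXD1 at the 48.9th and MYCN at the 28.0th.

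**Figure D1:**
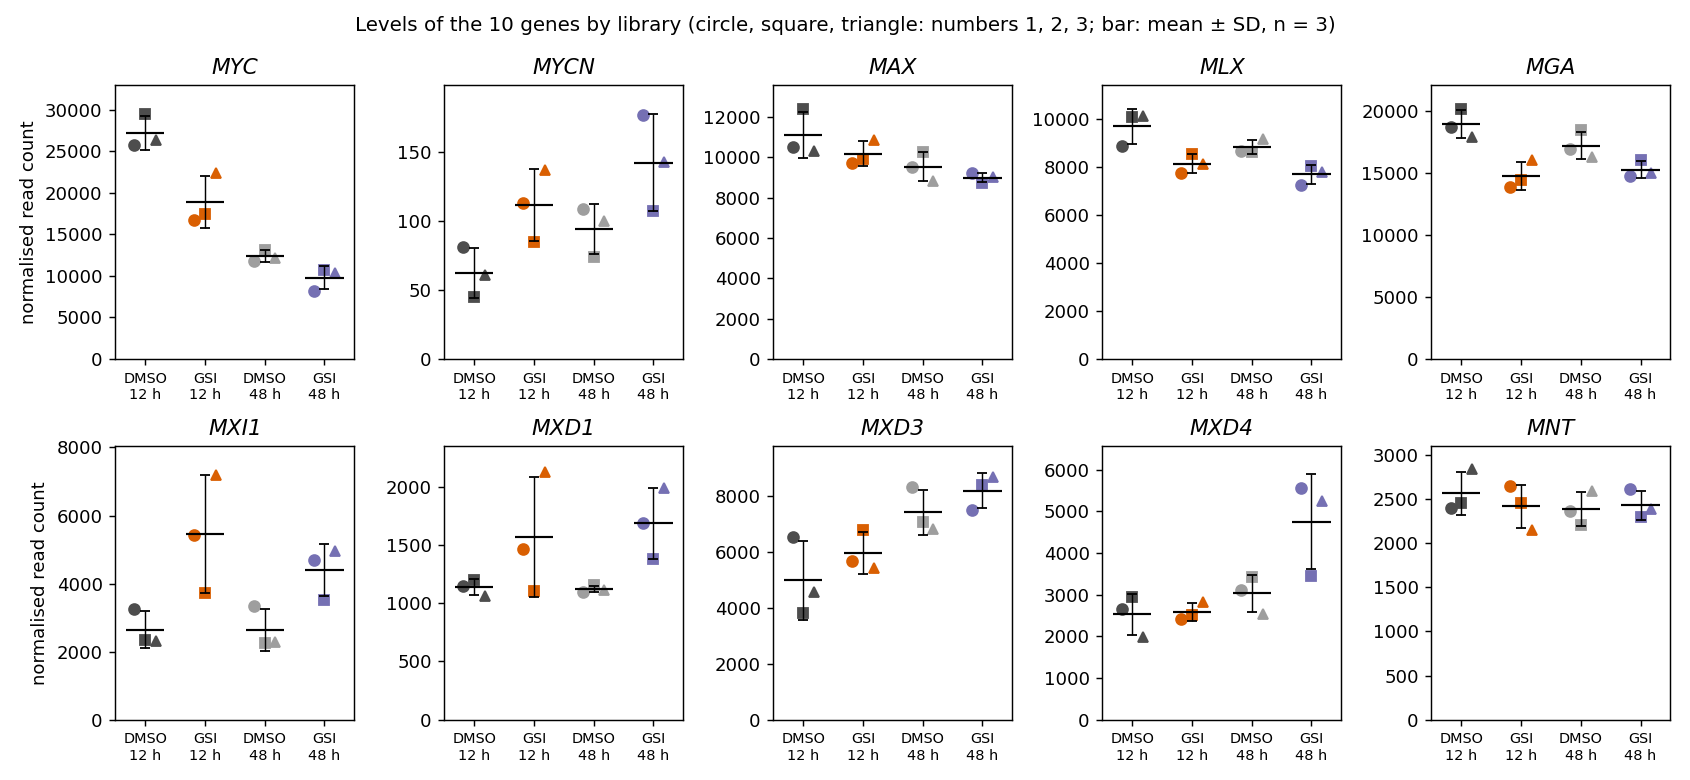
Normalised read count (linear axis from 0) of each of the 10 members in every library, by label group; points are libraries and bars the mean with SD of 3. MYC steps down over the 4 groups from a mean of 27154 to 9760, while MXI1 is high under both GSI labels and MXD4 under GSI 48 h.

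Some members share exon sequence with other genes, and counting by strand is not given in the sources used here, so their values are uncertain to that extent. In GENCODE 29, 22.5% of the exon bases of MXD3 overlap PRELID1 on the opposite strand and 926 of its 5154 exon bases overlap RAB24 on the same strand. For MLX, 18.1% overlap PSMC3IP on the opposite strand. For MNT, 12.2% overlap an antisense gene whose mean value was 0.0. The share was at most 4.4% in the other members with an overlap, and MYC had none.

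Between the GSI and DMSO labels at 12 h, 5 of the 10 members passed the test, against 21.5% of all genes tested. Of these, 2 were higher (10.1% of all genes) and 3 lower (11.4%). At 48 h, 1 of 10 passed, against 9.68% of all genes, and it was higher (4.33% of all genes). Between 48 h and 12 h labels, 1 of 10 passed in DMSO, against 4.53% of all genes, and it was lower (2.51%). In GSI 2 of 10 passed, against 3.98% of all genes, 1 higher (1.62%) and 1 lower (2.37%). GSI 48 h against DMSO 12 h gave 9 of 10, against 34.2% of all genes, with 5 higher (15.8%) and 4 lower (18.4%). DMSO 48 h against GSI 12 h gave 2 of 10, against 11.8% of all genes, both lower (6.28%). No member of the 10 passed the test that the GSI effect changed with time, in which limma called 0 of all genes (0.0%; 875 at an unadjusted p under 0.05), edgeR 0 and DESeq2 62. A gene passed at a limma adjusted p under 0.05 over all genes tested, and the 6 pairs share groups of libraries, so they are not independent of one another.

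**Figure D2:**
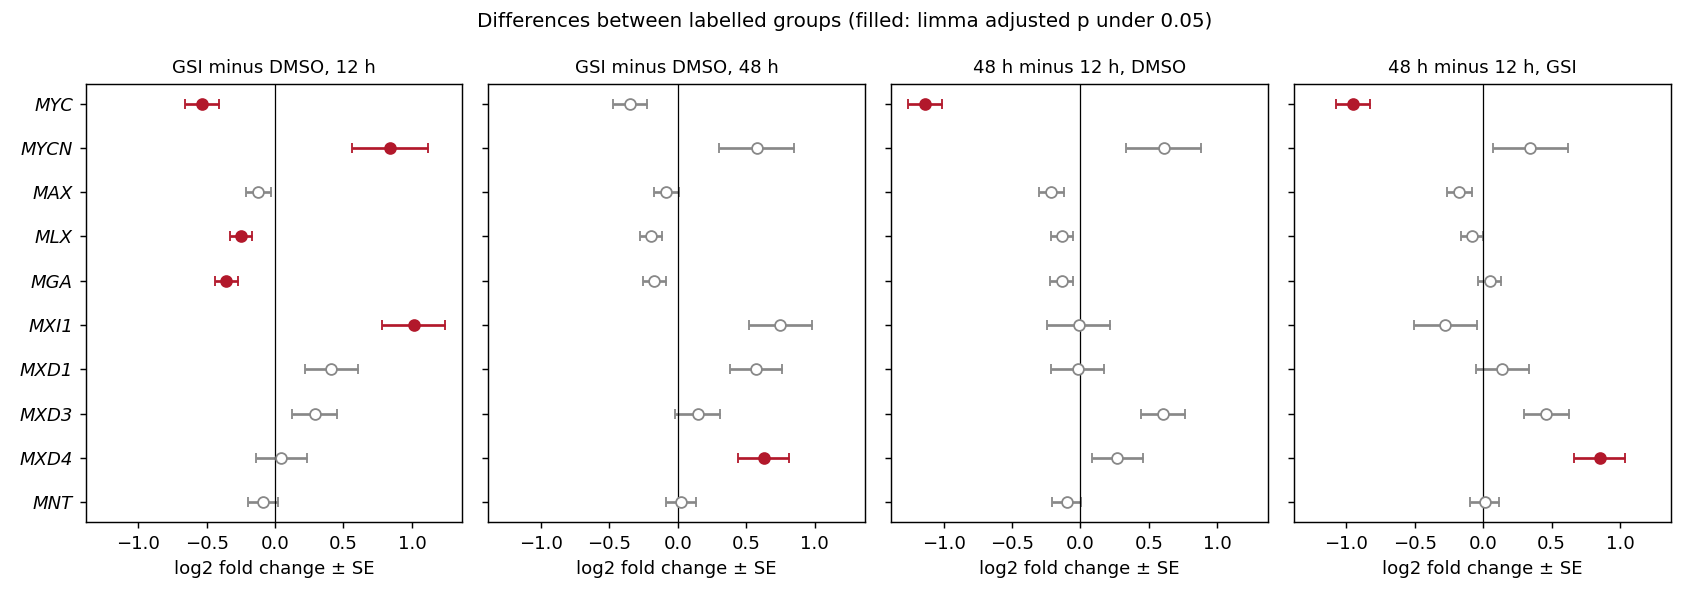
Log2 fold change of each of the 10 members, GSI minus DMSO at 12 h and at 48 h and 48 h minus 12 h in DMSO and in GSI, with bars of 1 moderated standard error; filled points passed limma's adjusted p under 0.05. MYC lies below 0 in all 4 panels, MXI1 has the highest value at 12 h (1.01), and MNT lies near 0 in each.

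MYC (ENSG00000136997), the activator that drives growth genes in this leukaemia, had a log2 fold change below 0 in all 6 pairs of groups and passed in 5. Its normalised read counts were 25699, 29455 and 26307 in the DMSO 12 h libraries and 16713, 17487 and 22427 in the GSI 12 h libraries. They were 11743, 13159 and 12150 in the DMSO 48 h libraries and 8180, 10756 and 10346 in the GSI 48 h libraries. No group overlapped another, and each group lay wholly below the one before it in that order.

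The estimated MYC differences between treatment labels were smaller than those between time labels, a contrast that was not itself tested. At 12 h the log2 fold change of GSI against DMSO was -0.53 ± 0.12 (SE, adjusted p = 0.0113), and at 48 h it was -0.35 ± 0.12 (adjusted p = 0.0864), which did not pass without a replicate term and passed with the replicate number as a block (adjusted p = 0.0247). From 12 to 48 h MYC changed by -1.14 ± 0.12 in DMSO (adjusted p = 0.000201) and by -0.95 ± 0.12 in GSI (adjusted p = 0.000596). GSI 48 h against DMSO 12 h gave -1.48 ± 0.12 (adjusted p = 5.993e-06), a ratio of 0.358. DMSO 48 h against GSI 12 h gave -0.60 ± 0.12 (adjusted p = 0.0114). The change of the GSI effect on MYC with time was 0.19 ± 0.18 and did not pass. The 12 h call of MYC was lost without the DMSO 12 h library numbered 2 (adjusted p = 0.0539) or the GSI 12 h library numbered 1 (0.0595).

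MYCN (ENSG00000134323), the paralogue of MYC best known from neuroblastoma, was low in every library and ran the other way. It had normalised read counts of 81.4, 45.0 and 61.0 in the DMSO 12 h libraries and 112.7, 84.8 and 137.0 in the GSI 12 h libraries. They were 108.7, 74.0 and 99.9 under DMSO 48 h and 176.9, 106.9 and 142.3 under GSI 48 h. The library numbered 2 was the lowest of each group, and the 2 groups at 12 h did not overlap. MYCN rose in GSI against DMSO at 12 h by 0.84 ± 0.27 on the log2 scale (adjusted p = 0.0445), and was 0.58 ± 0.27 higher at 48 h (adjusted p = 0.177; 0.0240 with the replicate block). From 12 to 48 h in DMSO it was 0.61 ± 0.27 higher (adjusted p = 0.270; 0.00889 with the block within treatment). GSI 48 h exceeded DMSO 12 h by 1.18 ± 0.27 (adjusted p = 0.00539). The 12 h call of MYCN was lost under 9 of its 22 alternatives, with an adjusted p of up to 0.173, reached without the DMSO 12 h library numbered 2.

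MAX (ENSG00000125952), the partner that MYC and MXD proteins share, passed in 1 of the 6 pairs of groups. Counts after scaling were 10527, 12409 and 10344 under DMSO 12 h, 9729, 9912 and 10883 under GSI 12 h, 9546, 10272 and 8823 under DMSO 48 h, and 9212, 8743 and 9037 under GSI 48 h. The treatment groups overlapped at both times. The log2 fold change of GSI against DMSO was -0.12 ± 0.09 at 12 h (adjusted p = 0.354) and -0.08 ± 0.09 at 48 h (adjusted p = 0.567). MAX was lower in GSI 48 h than in DMSO 12 h by -0.30 ± 0.09 (adjusted p = 0.0228), and this call was lost under upper-quartile scaling (-0.17, adjusted p = 0.124). From 12 to 48 h it changed by -0.21 in DMSO and -0.18 in GSI, which passed with the replicate number as a block within treatment (adjusted p = 0.00509 and 0.0161) and not without it (0.233 and 0.379).

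MXI1 (ENSG00000119950), a MAX-binding repressor also called MXD2, had the highest fold change of the members between the treatment labels at 12 h. The libraries held normalised read counts of 3268, 2333 and 2321 in the DMSO 12 h libraries against 5437, 3723 and 7196 in the GSI 12 h libraries. At 48 h they were 3343, 2261 and 2276 under DMSO and 4692, 3520 and 4957 under GSI. Every GSI library lay above every DMSO library, and the library numbered 2 was the lowest of both GSI groups. MXI1 rose by 1.01 ± 0.23 on the log2 scale at 12 h (adjusted p = 0.0104) and was 0.75 ± 0.23 higher at 48 h (adjusted p = 0.0560; 0.0108 with the replicate block). Between the 2 DMSO groups the difference was -0.01 ± 0.23 (adjusted p = 0.991). Between the 2 GSI groups it was -0.28 ± 0.23 (adjusted p = 0.627; 0.0143 with the block within treatment). DMSO 48 h against GSI 12 h gave a fall of MXI1 by 1.03 (SE 0.23, adjusted p = 0.0162), a call lost on leaving out GSI 12 h number 1 (0.0670), GSI 12 h number 3 (0.0557) or DMSO 48 h number 2 (0.0680). The 12 h call of MXI1 held in 22 of 22 alternatives, with an adjusted p of at most 0.0456.

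MXD1 (ENSG00000059728), the repressor first known as MAD and usually raised as blood cells differentiate, had 1144, 1202 and 1065 normalised reads under DMSO 12 h and 1464, 1108 and 2124 under GSI 12 h. At 48 h it had 1098, 1152 and 1111 under DMSO and 1684, 1381 and 1988 under GSI. The DMSO libraries lay close together, whereas the GSI libraries were spread out, with the library numbered 2 again lowest. At 12 h the groups overlapped and the log2 fold change was 0.41 ± 0.19 (adjusted p = 0.139). On leaving out that library the value was 0.63 (adjusted p = 0.0161). At 48 h the groups did not overlap, and the value was 0.57 ± 0.19 (adjusted p = 0.0724; 0.0331 with the replicate block).

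A list of hypoxia response genes varied between the GSI libraries, and the library numbered 2 was lowest in both GSI groups for the list, MXI1 and MXD1. The order of the other libraries was shared at 12 h but not at 48 h, where number 1 was highest for the list and number 3 for MXI1 and MXD1. The median of the 24 genes of the list other than MXI1, relative to the mean of all libraries, was 1.77, 0.28 and 1.87 (log2) in the GSI 12 h libraries numbered 1, 2 and 3. It was 1.23, -0.17 and 0.68 in the GSI 48 h libraries and between -1.11 and -0.77 in the 6 DMSO libraries. At 12 h 23 of the 25 genes of the list, MXI1 included, passed higher and 0 lower (10.1% of all genes passed higher), and at 48 h 12 passed higher and 0 lower (4.33% of all genes passed higher). BNIP3, a mitophagy receptor, had 421 ± 46.6 normalised reads under DMSO 12 h and 8421 ± 5287 under GSI 12 h. MXI1 and the hypoxia list share libraries, and the part of that list in the MXI1 and MXD1 values was not tested. Without both GSI libraries numbered 2, MXI1 was 0.90 higher at 48 h (adjusted p = 0.0110) and MXD1 was 0.71 higher (adjusted p = 0.00910).

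**Figure D3:**
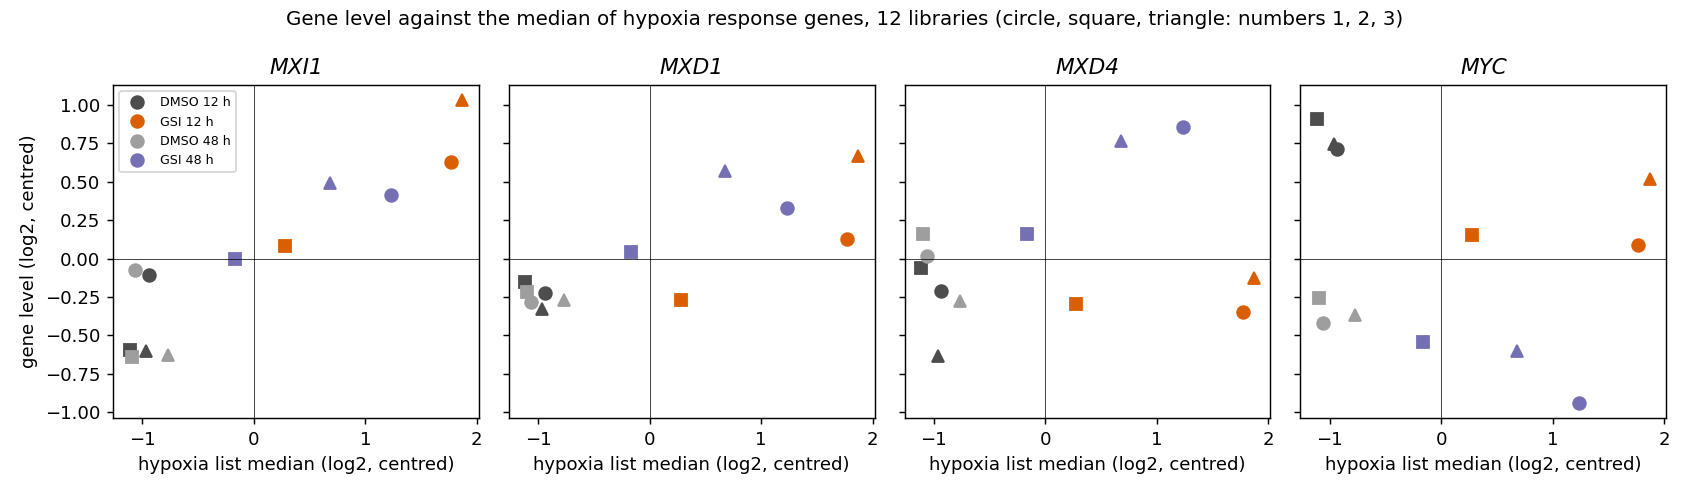
Level of MXI1, MXD1, MXD4 and MYC (y axis) against the median of 24 hypoxia response genes (x axis), both log2 relative to the mean of the 12 libraries; each point is a library, coloured by label group and shaped by number. The 6 DMSO libraries sit at list medians of -1.11 to -0.77, the GSI libraries numbered 2 (0.28 and -0.17) lie between them and the other GSI libraries, and MXD4 is high in GSI 48 h but not in GSI 12 h.

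MXD4 (ENSG00000123933), another repressor of the MXD family, was highest in the GSI 48 h libraries. Its normalised read counts were 2662, 2943 and 1980 under DMSO 12 h, 2415, 2507 and 2815 under GSI 12 h, 3108, 3435 and 2545 under DMSO 48 h, and 5564, 3443 and 5238 under GSI 48 h. The lowest GSI 48 h library, numbered 2, stood only just above the highest DMSO 48 h library, also numbered 2. MXD4 rose in GSI against DMSO at 48 h by 0.63 ± 0.19 on the log2 scale (adjusted p = 0.0498), and differed by 0.05 ± 0.19 at 12 h (adjusted p = 0.885). Between the GSI groups it rose from 12 to 48 h by 0.85 ± 0.19 (adjusted p = 0.0202).

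The change of the GSI effect on MXD4 with time was 0.58 ± 0.26, with an unadjusted p = 0.0446 and an adjusted p = 0.999. With the replicate number as a block within treatment the adjusted p was 0.0409, the only member to pass there, against 6.1% of all genes. The 48 h call of MXD4 sat at the threshold and held in 14 of 22 alternatives. It was lost without any 1 of the DMSO 48 h libraries or the GSI 48 h libraries numbered 1 or 3, with an adjusted p of up to 0.208 and log2 fold changes of 0.50 to 0.72. It was also lost without the DMSO 12 h library numbered 1 (adjusted p = 0.0605) or the GSI 12 h library numbered 1 (0.0620), which leave its value as it was. Its call between the GSI groups was lost when the GSI 12 h library numbered 1 (0.0787) or 2 (0.0549) was left out, and likewise for those of GSI 48 h numbered 1 (0.0914) and 3 (0.0954).

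MXD3 (ENSG00000213347), the MXD protein linked to dividing cells, had the highest mean per kilobase of MXD1, MXD3, MXD4, MXI1 and MNT under DMSO 12 h. Normalised read counts were 6538, 3818 and 4575 under DMSO 12 h, 5663, 6796 and 5408 under GSI 12 h, 8324, 7070 and 6821 under DMSO 48 h, and 7479, 8403 and 8664 under GSI 48 h. The 48 h libraries all lay above the 12 h libraries, and the treatment groups overlapped at each time. From 12 to 48 h it was 0.60 ± 0.16 higher in DMSO (adjusted p = 0.0533; 0.000470 with the block within treatment) and 0.46 ± 0.16 higher in GSI (adjusted p = 0.158; 0.00287 with that block). GSI against DMSO gave 0.29 ± 0.16 at 12 h (adjusted p = 0.218) and 0.15 ± 0.16 at 48 h (adjusted p = 0.575). The DMSO 12 h library numbered 1 held the high value of its group. Without it, MXD3 rose from 12 to 48 h in DMSO by 0.82 (adjusted p = 0.00440).

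MNT (ENSG00000070444), the broadly expressed antagonist of MYC, was the steadiest member. It had normalised read counts of 2391, 2455 and 2836 under DMSO 12 h, 2638, 2447 and 2152 under GSI 12 h, 2365, 2205 and 2585 under DMSO 48 h, and 2606, 2288 and 2379 under GSI 48 h. All 4 groups overlapped one another. Its 6 log2 differences ran from -0.10 to 0.02, each with a standard error of 0.11, and 0 passed.

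MGA (ENSG00000174197), the large repressor that carries a second DNA-binding domain, was lower under the GSI labels. The libraries held normalised read counts of 18672, 20105 and 17889 under DMSO 12 h and 13820, 14428 and 16024 under GSI 12 h. At 48 h they were 16914, 18398 and 16246 under DMSO and 14725, 15987 and 15002 under GSI. The GSI libraries lay below the DMSO libraries at both times, narrowly at 48 h. MGA fell by 0.36 on the log2 scale at 12 h (SE 0.08, adjusted p = 0.0116), and was lower by -0.17 ± 0.08 at 48 h (adjusted p = 0.185). Its 12 h call was lost without the DMSO 12 h library numbered 2 (adjusted p = 0.0581) or the GSI 12 h library numbered 1 (0.0599).

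MLX (ENSG00000108788), the partner on the glucose-sensing side of the network, was also lower under the GSI labels. Normalised read counts were 8872, 10105 and 10141 under DMSO 12 h, 7764, 8554 and 8121 under GSI 12 h, 8694, 8632 and 9180 under DMSO 48 h, and 7276, 8038 and 7807 under GSI 48 h. The treatment groups did not overlap at either time. MLX fell by 0.25 on the log2 scale at 12 h (SE 0.08, adjusted p = 0.0431), and was lower by -0.20 ± 0.08 at 48 h (adjusted p = 0.124; 0.0295 with the replicate block). From 12 to 48 h in DMSO the difference of MLX was -0.13 ± 0.08 (adjusted p = 0.464; 0.0468 with the block within treatment). The 12 h call held in 11 of 22 alternatives and was lost under upper-quartile scaling (-0.16, adjusted p = 0.117).

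Groups that did not overlap were counted for all members beside all genes. At 12 h the treatment groups of 2 members did not overlap in the higher direction (17.1% of all genes) and of 3 in the lower (19.3%). At 48 h the counts were 3 higher, MXD1, MXD4 and MXI1, against 16.9% of all genes, and 3 lower, MYC, MGA and MLX, against 18.5%. In GSI 48 h against DMSO 12 h they were 5 higher (23.7% of all genes) and 4 lower (25.0%). With the replicate number as a block, 6 members passed between the treatment labels at 48 h, 4 higher and 2 lower, against 27.3% of all genes. With the block within treatment, 5 passed over time in DMSO (29.2% of all genes) and 5 in GSI (28.8%).

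In GSI 48 h against DMSO 12 h, 34.2% of all genes passed, 15.8% higher and 18.4% lower. MYC passed lower and 4 of its 6 repressors higher. The repressor MGA passed lower, as MYC did, and the activator MYCN passed higher. This comparison differs in both treatment and time labels, which cannot be told apart in it. In the matched comparisons the estimates of the members were not alike. MXD3 differed by 0.60 over time in DMSO (adjusted p = 0.0533) and by 0.15 between treatments at 48 h (0.575). MXI1 differed by -0.01 (0.991) and 0.75 (0.0560). None of these values passed, and the difference between the genes was not tested. Between GSI 48 h and DMSO 12 h, MYC, MAX, MGA and MLX passed lower, and MYCN, MXD1, MXD3, MXD4 and MXI1 passed higher. The log2 fold changes were 0.55 ± 0.19 (MXD1, adjusted p = 0.0402), 0.75 ± 0.16 (MXD3, 0.00375), 0.90 ± 0.19 (MXD4, 0.00280) and 0.74 ± 0.23 (MXI1, 0.0258). MGA had -0.31 ± 0.08 (adjusted p = 0.0127) and MLX -0.33 ± 0.08 (0.00744). The median of the 10 members was 0.24 and that of all genes tested 0.01. Upper-quartile scaling moved the median of all genes in this comparison to 0.13, and under it 7 members passed, MAX and MGA no longer among them. Of these calls, that of MXD1 was lost in 10 of 22 alternatives (adjusted p up to 0.159), MAX in 6 (up to 0.124), MXI1 in 4 (up to 0.0958) and MGA in 3 (up to 0.0726). Leaving out 1 library left 5 to 9 members, and the count was 5 when either DMSO 12 h number 2 or GSI 48 h number 1 was the one left out.

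The balance of MYC to its competitors was described as the ratio of MYC to the summed 6 MAX-binding repressors, all per kilobase. It was 2.21, 3.00 and 2.76 in the DMSO 12 h libraries and 1.41, 1.55 and 1.66 in the GSI 12 h libraries. It was 0.935, 1.15 and 1.13 in the DMSO 48 h libraries and 0.585, 0.840 and 0.699 in the GSI 48 h libraries. The 4 groups did not overlap, and their means were 2.66 ± 0.40, 1.54 ± 0.12, 1.07 ± 0.12 and 0.708 ± 0.13 (SD, n = 3). By this measure MYC was above the sum of its repressors in every 12 h library and below it in every GSI 48 h library. Where the ratio meets 1 depends on the exon lengths used, which merge all annotated transcripts of a gene. It also depends on MXD3, 22.5% of whose exon bases overlap PRELID1. The ratio is of RNA, and protein was not measured.

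The parts of the ratio were as follows. The summed repressors had 3439 ± 373 normalised reads per kb under DMSO 12 h, 4063 ± 388 under GSI 12 h, 3859 ± 308 under DMSO 48 h and 4619 ± 335 under GSI 48 h, while MYC went from 9048 to 3252 per kb between the first and the last of these. MAX had 2504 ± 258 and 2031 ± 53.5 per kb in those 2 groups, below the summed repressors in both. Shares were taken of the sum of MXD1, MXD3, MXD4, MXI1 and MNT per kb, in the order DMSO 12 h, GSI 12 h, DMSO 48 h and GSI 48 h. MXD3 made up 40.3% ± 5.3, 36.3% ± 7.9, 49.8% ± 0.43 and 42.5% ± 5.4. MXI1 made up 24.1% ± 1.0, 36.1% ± 8.1, 19.6% ± 2.6 and 25.2% ± 2.2, so its mean share was highest under GSI 12 h and about equal in DMSO 12 h and GSI 48 h. MXD4 made up 15.3% ± 3.7, 11.4% ± 0.66, 14.9% ± 2.2 and 17.8% ± 3.1. MNT ran from 7.43% to 12.6% and MXD1 from 6.16% to 7.68% over the group means. These shares are a description, with no test.

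**Figure D4:**
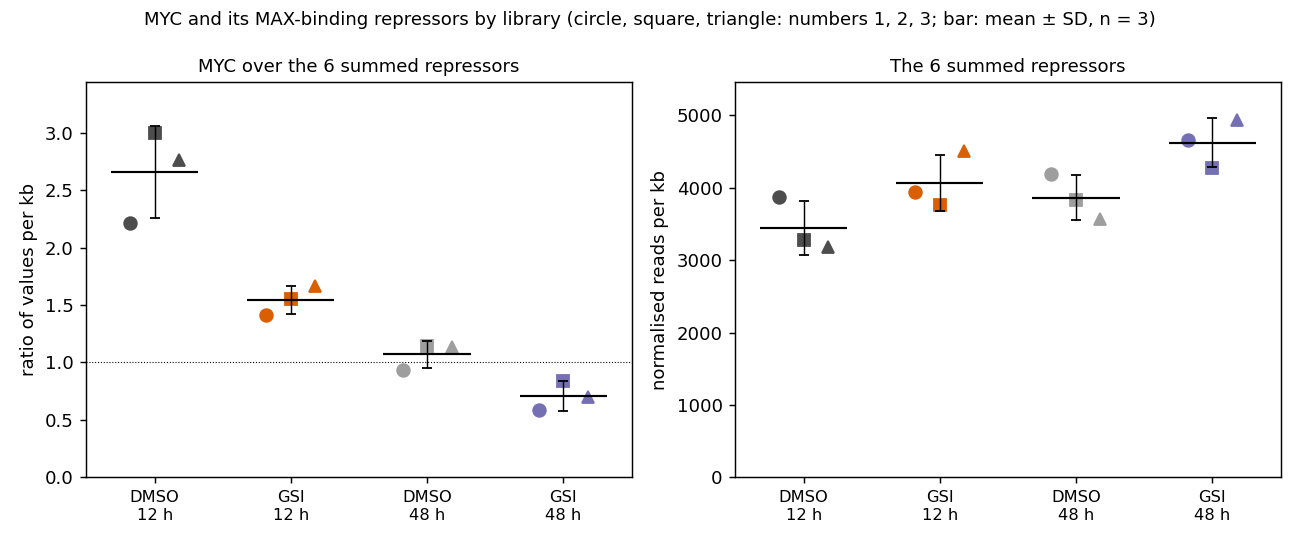
Left, ratio of MYC to the 6 summed MAX-binding repressors, with a dotted line at a ratio of 1, a level that depends on the exon lengths used. Right, the summed repressors in normalised reads per kb of exon. Points are the 12 libraries by label group, bars are means with SD of 3, and both axes start at 0. The ratio is between 2.21 and 3.00 in the DMSO 12 h libraries and between 0.585 and 0.840 in the GSI 48 h libraries.

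Genes that MYC is known to raise had a median below 0 in 5 of the 6 pairs of groups, while MYC was below 0 in all 6. Of the 39 genes kept from this list of 42, 27 passed lower and 1 higher in GSI against DMSO at 12 h, with a median log2 fold change of -0.72 against 0.00 for all genes tested. Of all genes, 11.4% passed lower and 10.1% higher in that comparison. RRS1, a ribosome assembly factor, fell by 1.46 ± 0.21 (adjusted p = 0.00196), from 5168 ± 678 to 1932 ± 614 normalised reads. MYBBP1A, a nucleolar protein, fell by 1.07 ± 0.14 (adjusted p = 0.00144). WDR43, of the small ribosomal subunit processome, fell by 0.92 ± 0.14 and TFAP4, a transcription factor, by 0.72 ± 0.11. LDHA, the lactate dehydrogenase subunit that is also in the hypoxia list, was the 1 rise (0.77 ± 0.18, adjusted p = 0.0103).

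The same list in the other comparisons had 18 lower and 0 higher at 48 h between treatments (median -0.52), 15 and 0 over time in DMSO (median -0.53), and 5 and 0 over time in GSI (median -0.38). The shares of all genes that passed lower were 5.35%, 2.51% and 2.37%, and the median of all genes was 0.00 in each. UBTF, which helps RNA polymerase I, had 42659 ± 5810 normalised reads under DMSO 48 h and 24224 ± 3513 under GSI 48 h (log2 fold change -0.82 ± 0.16, adjusted p = 0.0154). In GSI 48 h against DMSO 12 h 34 passed lower and 0 higher, with a median of -1.04, against 18.4% of all genes lower. In DMSO 48 h against GSI 12 h, where MYC was lower, 3 passed lower and 1 higher and the median was 0.18, against 6.28% of all genes lower and 5.53% higher. Leaving out the DMSO 48 h libraries in turn lowered the count at 48 h to 0, 1 and 3 for numbers 1, 2 and 3, and leaving out number 1 or 3 of GSI 48 h lowered it to 0. With the replicate block it was 27, where 27.3% of all genes passed in either direction, against 9.68% in the main test. Leaving out 1 library gave 18 to 28 genes lower at 12 h and 2 to 20 over time in DMSO. It gave 1 to 5 over time in GSI and 32 to 35 in GSI 48 h against DMSO 12 h. The block within treatment gave 36 over time in both DMSO and GSI. With that block 29.2% and 28.8% of all genes passed in either direction, against 4.53% and 3.98% in the main test.

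**Figure D5:**
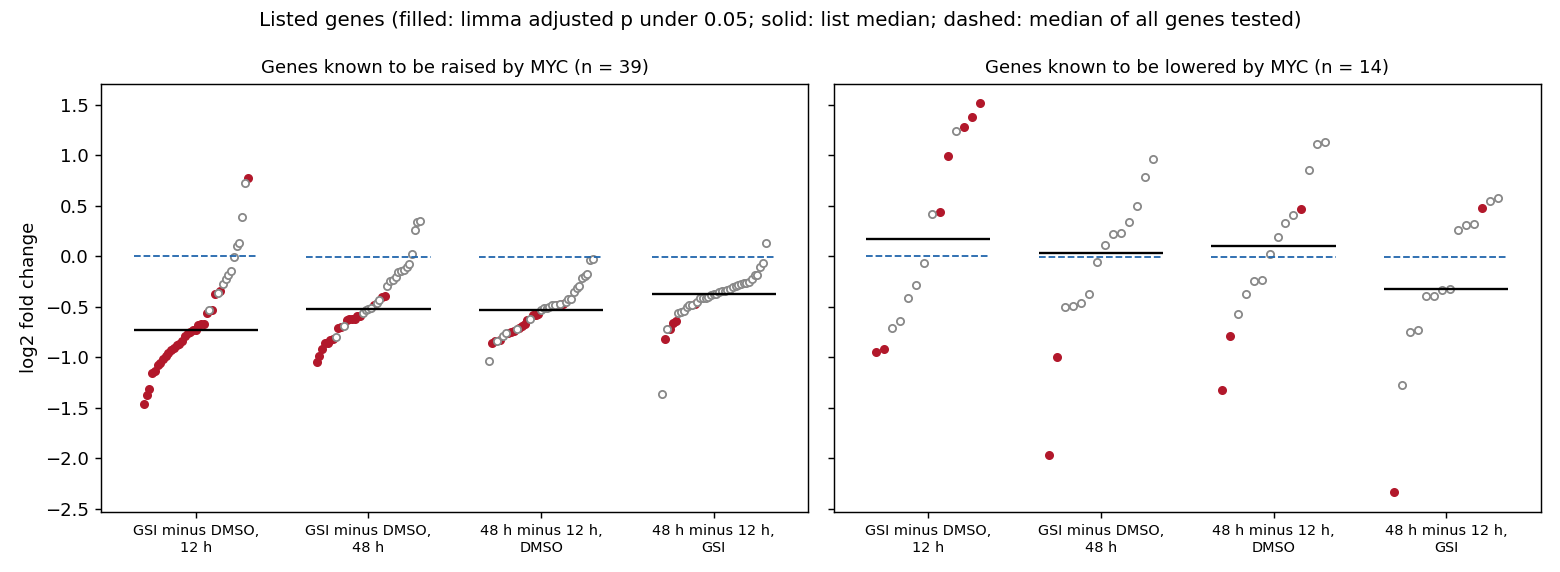
Log2 fold change of each gene known to be raised by MYC (left, 39 genes) or lowered by it (right, 14 genes) in 4 comparisons; filled points passed limma's adjusted p under 0.05, solid lines are list medians and dashed lines the median of all genes tested. The raised list has medians of -0.72, -0.52, -0.53 and -0.38 from left to right, while the lowered list spreads to both sides of 0.

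Genes that MYC is known to lower moved in both directions. Of the 14 kept from this list of 20, 5 passed higher and 2 lower at 12 h between treatments, with a median of 0.18 against 0.00 for all genes. Of all genes 10.1% passed higher and 11.4% lower, and the share of the list that passed lower was near the latter. NDRG2 rose by 1.38 ± 0.27 (adjusted p = 0.00564), NDRG1, a stress-response gene also in the hypoxia list, by 1.28 ± 0.33, and CDKN1C, a cyclin-dependent kinase inhibitor, by 1.52 ± 0.43. CCND1, cyclin D1, fell by 0.95 ± 0.24 (adjusted p = 0.0168). At 48 h 0 passed higher and 2 lower (5.35% of all genes passed lower), CCND1 (-1.96 ± 0.24) and the kinase inhibitor CDKN1A (from 278 ± 48.2 to 142 ± 45.1 normalised reads, adjusted p = 0.0339). Leaving out 1 library gave 1 to 5 higher and 0 to 3 lower at 12 h: without the GSI 12 h library numbered 1, 1 passed higher and 0 lower, and without that numbered 3, 1 and 1.

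Genes for the proteins that MYC and its competitors recruit were counted next. Of 16 MYC cofactors, 0 passed higher and 6 lower at 12 h (median -0.25), against 11.4% of all genes lower and a median of 0.00. Among these were HCFC1 (-0.52 ± 0.09, adjusted p = 0.00341) and WDR5 (-0.55 ± 0.12, adjusted p = 0.00899), both known to bind MYC. At 48 h 0 passed higher and 4 lower, against 5.35% of all genes lower, including the helicase RUVBL2 (-0.49 ± 0.13, adjusted p = 0.0337). Over time in DMSO 1 passed, the acetyltransferase KAT2A (-0.62 ± 0.10, adjusted p = 0.00303), and KAT2A was also the 1 that passed over time in GSI (-0.45 ± 0.10). In GSI 48 h against DMSO 12 h 8 passed lower and 0 higher, against 18.4% of all genes lower. Leaving out 1 library gave 3 to 7 lower at 12 h and 0 to 5 at 48 h.

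Of 17 genes of the SIN3 and NCOR corepressor complexes, through which MXD proteins act, 2 passed higher and 2 lower at 12 h, with a median of -0.06 against 0.00 for all genes. These shares are near those of all genes (10.1% higher and 11.4% lower) and are no result about the list. ARID4A rose by 0.55 ± 0.12 (adjusted p = 0.00989) and ING2 by 0.41 ± 0.11, while BRMS1 fell by 0.53 ± 0.12 and SAP18 by 0.40 ± 0.11. At 48 h 0 passed higher and 3 lower, against 5.35% of all genes lower: SAP18, BRMS1 and the deacetylase HDAC1 (-0.41 ± 0.10, adjusted p = 0.0310). Of 10 partners of MGA in its Polycomb complex, 0 passed higher and 2 lower at 12 h, E2F6 (-0.44 ± 0.10, adjusted p = 0.0123) and TFDP1 (-0.32 ± 0.10), and 0 passed at 48 h (11.4% and 5.35% of all genes passed lower at these times). Of the other network genes, MYCL was near the lower limit with group means of 11 to 20 normalised reads, MLXIP passed in no comparison (-0.27 ± 0.10 at 12 h, adjusted p = 0.0710), and MLXIPL and ARRDC4 were below the filter. TXNIP is listed at 0 under the 1 identifier matched to its symbol. The annotation used for counting on hg19 is not stated, and whether this 0 reflects the identifier or the transcript was not tested.

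Genes with the pattern most like each member were ranked by Pearson's r of log2(value + 1) over the 12 libraries, among 12002 named genes with a mean of at least 100. These r values describe 12 libraries that share group differences, depth and scaling. Those most like MYC were TASP1 (r = 0.98), DDHD1 (0.98) and NKX2-5 (0.97), and NKX2-5 went from 9667 to 3863 normalised reads between DMSO 12 h and GSI 48 h. Those most like MXI1 were ZNF133, POFUT2 and GPR160 (0.96 each), and those most like MXD1 were MFSD8 (0.99), ZNF496 (0.98) and PPM1K (0.98). MXD4 was closest to KCNA3 (0.98), GAL3ST4 (0.95) and TP53INP1 (0.93), and MXD3 to CCDC69 (0.94), ORMDL3 (0.94) and AXIN2 (0.91). MLX was closest to SBDS (0.98), POLR3A (0.98) and NOL10 (0.97), and MGA to ZBTB49 (0.97). Among the members themselves r was 0.84 for MYC with MAX, 0.84 for MXD1 with MXI1, -0.84 for MYC with MXD3 and -0.90 for MYCN with MLX.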

How the data were processed

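Poly-A RNA was sequenced in 12 libraries of CUTLL1 in 4 label groups of 3. The tools named per the submitters' processing notes are DESeq2, HTSeq 0.6.1, TopHat2 2.0.10 and FastQC 0.10.1, with the build hg19. Their settings, the annotation and the use of strand are not stated there. Each deposited value is a signal, in that the authors' count of reads for a gene was scaled by the library's size factor. Whole reads were recovered from them (100% whole within 0.01 in every library; 73939612 to 160702764 reads), and edgeR 4.0.16 and DESeq2 1.42.0 were run on these as alternatives; edgeR called 4201 genes at 12 h and 1919 at 48 h between treatment labels. Depth bears most on MYCN, with 45 to 144 reads per library.

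The filter kept 19281 of 62069 identifiers, those with 3 or more libraries at a value of 10 or above. The main test was limma 3.58.1 (R 4.3.3, trended prior) on log2(value + 1), with group means over all 12 libraries and Benjamini-Hochberg adjustment over all genes kept; every adjusted p is from it unless another tool is named, and SE is the moderated standard error. Fold changes on this scale understate changes of low genes. The test was also run on simulated reads, drawn independently for each library. That run held no scatter shared by same-numbered libraries, so it cannot show how the test behaves with it.

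Same-numbered libraries deviated together, with correlations of 0.545 to 0.612 over time in DMSO and 0.400 to 0.545 over time in GSI. Between treatment labels at 48 h the correlations were weak, at 0.103, 0.157 and 0.104, against -0.152 to 0.05 for differently numbered libraries. Block values are given for these comparisons where they change a call, and at 48 h they rest on that weak pairing. The pairing comes from the data alone, as the labels do not say that a number marks a shared culture or day.

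The members, gene lists and comparisons were chosen with earlier results of these data known, and no set test was run. All members are named; from each list up to 4 genes of smallest p per comparison could be named, and not all are. Promoters are from RefSeq (GRCh38.p14), exon lengths and overlaps from GENCODE 29, and symbols matched 39007 of the identifiers. Genome positions on hg19 are not given. Alternatives were the pseudocount, filter, scaling, test, groups fitted, replicate block and leaving out libraries.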

Additional observations from a re-analysis of the deposited data

Results flagged for a closer look

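MXD4 passed a test of a change in the GSI effect with time in 1 of the models fitted and in no other. The estimated GSI effect on MXD4 was larger at 48 h than at 12 h by 0.58 on the log2 scale. This difference had an adjusted p of 0.0409 in limma with the replicate number as a block within treatment, where 6.1% of all genes passed. The adjusted p was 0.999 without the block, 0.550 with a plain replicate block, 0.999 in edgeR and 0.808 in DESeq2. Group means were 2528 and 2579 normalised reads under DMSO and GSI at 12 h and 3029 and 4748 at 48 h.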

How the results depend on the processing

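Counts of members passing changed as follows, and the cause was not tested. Between treatment labels at 12 h, 5 became 3 with no filter on low values and 3 with only the groups compared; leaving out 1 library gave 1 to 6. At 48 h, 1 became 0 with no filter, 6 with the replicate block, 3 with only the groups compared and 3 with DESeq2. It became 4 without both GSI libraries numbered 2, and leaving out 1 library gave 0 to 4. The share of all genes passing at 48 h moved too, from 9.68% to 27.3% with the replicate block and 16.8% with DESeq2. Over time in DMSO, 1 became 2 with a filter at 50, 3 with the replicate block, 5 with the block within treatment and 2 with DESeq2. Leaving out 1 library gave 1 to 2. The share of all genes there went from 4.53% to 12.3% with the replicate block, 29.2% with the block within treatment and 8.13% with DESeq2. Over time in GSI, 2 became 5 with the block within treatment (3.98% and 28.8% of all genes), and leaving out 1 library gave 1 to 2. For the change of the GSI effect with time, 0 became 1 with that block (0.0% and 6.1% of all genes). GSI 48 h against DMSO 12 h gave 5 to 9 and DMSO 48 h against GSI 12 h gave 1 to 3 when 1 library was left out. The pairing of numbers was not clear between treatment labels at 12 h (correlations 0.096, 0.272 and 0.068, against up to 0.139 for differently numbered libraries). There the replicate block left 5 members, the same number as without it, while the share of all genes passing went from 21.5% to 36.1%.

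Single members changed sign 23 times, each time with a value that did not pass, and the cause was not tested. Under upper-quartile scaling these were MNT at 12 h (0.0017) and in GSI 48 h against DMSO 12 h (0.049), MAX at 48 h (0.0064), and MXD1 (0.016) and MXI1 (0.023) over time in DMSO. Leaving out 1 library turned MXD4 at 12 h (-0.12 to 0.16), MNT at 48 h (-0.030 to 0.084), MXD1 (-0.066 to 0.021) and MXI1 (-0.20 to 0.15) over time in DMSO, MXD1 (-0.082 to 0.39) and MNT (-0.070 to 0.077) over time in GSI, and MNT in DMSO 48 h against GSI 12 h (-0.095 to 0.052). It also turned the change of the GSI effect with time for MAX (-0.045 to 0.093), MXD1 (-0.062 to 0.41) and MXD3 (-0.36 to 0.031). Leaving out both GSI libraries numbered 2 turned MGA over time in GSI (-0.0018). MYC passed over time in 23 of 23 alternatives in both DMSO and GSI.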
